A study of Mus musculus with 8 samples.

Results

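A set of 10 genes was followed across 4 lines of EL4 cells, out of 54146 genes in the deposited tables. They comprise lysosomal and myeloid-type genes (Gpnmb, Clec4d, Clec4e, Atp6v0d2, Ctsk and Acp5) and the 4 genes of the MiT family of transcription factors (Mitf, Tfe3, Tfeb and Tfec). Gpnmb, Clec4d and Atp6v0d2 were selected on their lower RNA level in lines with T-bet, so their fall with T-bet is given as a description, without a test. The other 7 genes were added for their function, with earlier results of these data known. EL4 is a T cell lymphoma line from a C57BL/6 mouse, and RNA-seq was performed to ask how the TH1 factor T-bet and the TH2 factor GATA3, alone or together, change gene expression.

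GFP + Plum cells carry GFP and mPlum as control proteins, with neither factor introduced. T-bet + Plum cells express introduced T-bet, GFP + GATA3 cells express introduced GATA3, and T-bet + GATA3 cells express both factors. The vectors that the study names for mutant T-bet and mutant GATA3 also carry EGFP and mPlum. The labels thus do not show which lines lack these fluorescent proteins. The constructs (FLAG-tagged T-bet, HA-tagged GATA3) were introduced with retroviruses into drug-selected lines. RNA came from cells of all 4 lines that had been kept for 4 h in 50 ng/ml of the phorbol ester PMA with 1 μM ionomycin, which mimics T cell receptor signalling, so no unstimulated level is known here. Each line had 2 libraries (8 in all), fewer than the replicates named in the study's figure legend, and any others were not analysed here. The study defines replicates as harvests of 1 line on different days, so p-values measure the spread between harvests and not between independently made lines. Total estimated counts were between 8038565 and 16003519 per library. Tbx21, which encodes T-bet, had mean CPM (read counts scaled to library size) of 2.68 in GFP + Plum, 144 in T-bet + Plum, 2.11 in GFP + GATA3 and 148 in T-bet + GATA3 cells. Gata3 had 46.5, 30.3, 304 and 184 in the same order, so the libraries carried the RNA that their labels name. The study reports that EL4 cells express Gata3 of their own. Below, with or without GATA3 therefore means with or without introduced GATA3.

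MiT factors are basic helix-loop-helix leucine zipper proteins that bind E-box and M-box DNA and switch on lysosomal, autophagy, melanocyte and osteoclast genes. When nutrients are plentiful, mTORC1 at the lysosome surface phosphorylates Tfeb and Tfe3 and holds them in the cytoplasm, so their activity is set largely at the protein level. Gpnmb, Atp6v0d2, Ctsk and Acp5 are known MiT targets in macrophages, osteoclasts or pigment cells. Clec4d and Clec4e are C-type lectin receptors of myeloid cells that recognise microbial glycolipids and signal through the adaptor encoded by Fcer1g.

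Promoters are shown for Gpnmb, the most abundant of the 10 genes, and for Clec4d and Clec4e, neighbours whose RNA was low in the same lines. Each run is the 250 bases before a RefSeq start, 5′ to 3′ on the strand of the gene, in build GRCm38.p6. The regions are chr6:49036268-49036517 (plus strand) for Gpnmb, chr6:123261857-123262106 (plus strand) for Clec4d and chr6:123289872-123290121 (minus strand) for Clec4e. The Gpnmb window ends before the Gencode start of the gene at 49036546. Bases that follow this RefSeq start were not found in Gencode transcripts of Gpnmb, whereas those of Clec4d and Clec4e were found in theirs.
Gpnmb: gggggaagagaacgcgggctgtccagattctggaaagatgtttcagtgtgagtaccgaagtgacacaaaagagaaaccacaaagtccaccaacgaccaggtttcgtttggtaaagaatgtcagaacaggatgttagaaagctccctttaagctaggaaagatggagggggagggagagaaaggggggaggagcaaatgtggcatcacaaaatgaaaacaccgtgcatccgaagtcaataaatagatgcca
Clec4d: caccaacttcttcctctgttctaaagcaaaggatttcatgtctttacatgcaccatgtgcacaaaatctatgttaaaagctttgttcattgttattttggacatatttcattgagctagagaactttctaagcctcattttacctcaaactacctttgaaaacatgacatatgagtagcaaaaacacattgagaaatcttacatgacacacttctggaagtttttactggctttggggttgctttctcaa
Clec4e: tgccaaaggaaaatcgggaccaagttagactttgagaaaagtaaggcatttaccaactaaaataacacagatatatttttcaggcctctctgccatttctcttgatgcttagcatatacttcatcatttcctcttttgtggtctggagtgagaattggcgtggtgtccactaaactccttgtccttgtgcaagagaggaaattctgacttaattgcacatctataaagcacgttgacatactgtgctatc
Both strands were searched for the E-box CACGTG, the M-box TCATGTG, the T-box motif AGGTGTGA, the GATA motif AGATAA and the AP-1 motif TGANTCA, none of which contains another. No base is in capitals because none of these letter strings occurs in the 3 windows, which says nothing about binding there or elsewhere. Among 32536 mouse promoter windows of this length, the E-box was present in 6.04%, the M-box in 3.27%, the T-box motif in 1.12%, the GATA motif in 9.97% and the AP-1 motif in 6.73%. RefSeq promoters were matched for 9 of the 10 genes, in 16 windows. Only Acp5 windows held a match, with AGATAA in one and the reverse complement of the M-box, CACATGA, in another.

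Gpnmb encodes a heavily glycosylated transmembrane protein of lysosomes, melanosomes and the cell surface. It lies at chr6:49036546-49070929 on the plus strand (GRCm38, Gencode M21). It was strongly expressed in the control line for a gene usually studied in macrophages and pigment cells, ranking 688 among 21932 protein-coding genes at a mean of 132 ± 19.6 TPM (length-scaled transcript abundance) (SD, n = 2). Its CPM were 361 and 329 in GFP + Plum, 31.7 and 28.7 in T-bet + Plum, 612 and 664 in GFP + GATA3, and 98.2 and 107 in T-bet + GATA3 cells. The pairs of libraries of the 4 lines did not overlap, in the order GFP + GATA3, GFP + Plum, T-bet + GATA3, T-bet + Plum. Between T-bet + Plum and GFP + Plum the Gpnmb level was 11.5-fold lower (log2 FC -3.52), and between T-bet + GATA3 and GFP + GATA3 it was 6.22-fold lower (log2 FC -2.64). These comparisons chose the gene. The main transcript, ENSMUST00000031840.9, held 76.7% of the Gpnmb counts over all libraries and between 70.1% and 81.4% in each, so 1 coding transcript dominated in every line.

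Among the lines with T-bet, Gpnmb was higher in the line that also had introduced GATA3. Its level was 3.4-fold higher in T-bet + GATA3 than in T-bet + Plum cells (log2 FC 1.77, SE 0.13), and 1.85-fold higher in GFP + GATA3 than in GFP + Plum cells (log2 FC 0.89, SE 0.12). Both comparisons run on libraries whose values chose the gene, so they are a description with no test, for Clec4d and Atp6v0d2 too. Among all genes in edgeR, 0.0338% of the 14791 tested were called in T-bet + GATA3 compared with T-bet + Plum cells (a call being an FDR no higher than 0.05 with a log2 FC beyond 1.5 in either direction). The 5 genes past these thresholds were Gpnmb, Gata3 (log2 FC 2.59), Mrgprx1 (5.63), RP23-359B23.11 (-2.33) and RP23-115O21.3 (-2.89), the last 3 of which were named after their values were seen. Without T-bet + Plum replicate 1 (log2 FC 1.84) or replicate 2 (1.69), Gpnmb stayed beyond the fold threshold but no longer passed the FDR threshold. With all libraries, of the 4 tested members that were not chosen for the fall, 0 passed both.

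The difference between the GATA3 effects with and without T-bet was fitted as an interaction, in which 0% of 14791 genes passed an FDR of 0.05 in edgeR and 381 had an unadjusted p below 0.05. It equals the difference between the T-bet comparisons that chose Gpnmb, Clec4d and Atp6v0d2, so for these genes it is a description with no test. For Gpnmb it was 0.88 on the log2 scale (SE 0.17). For the 4 other members with enough reads it was -0.33 for Clec4e, -0.40 for Tfe3, -0.49 for Tfeb and -0.06 for Acp5. These 4 all had an FDR of 1 in edgeR, 0 of them had an unadjusted p below 0.05, and DESeq2 called 0 of them.

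**Figure D1:**
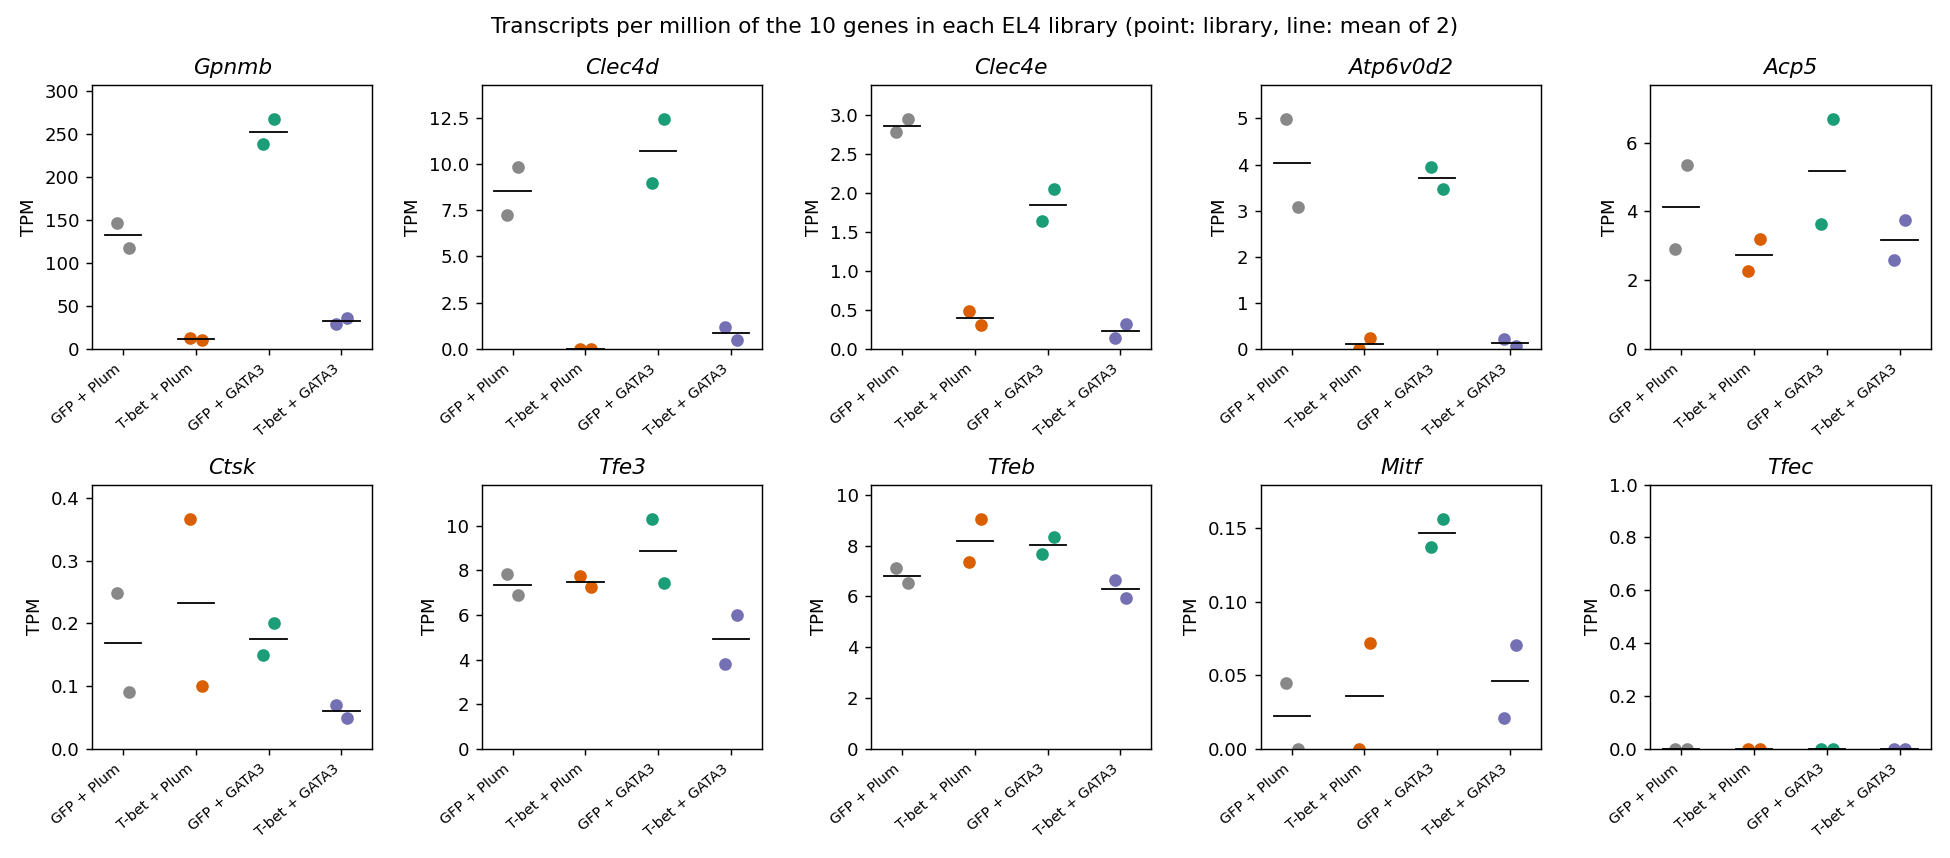
Level of each of the 10 genes in TPM (linear axis from 0, a scale of its own per panel) in the 4 EL4 lines. Points are libraries and lines are means of 2. Gpnmb, Clec4d, Clec4e and Atp6v0d2 were lower in all 4 libraries with T-bet, Tfe3 and Tfeb stayed between 3.81 and 10.3 TPM, and Mitf, Ctsk and Tfec were at or near 0.

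Clec4d (also known as MCL) lies at chr6:123262111-123275265 on the plus strand. Its counts were 90 and 144 in GFP + Plum, 0 and 0 in T-bet + Plum, 72 and 164 in GFP + GATA3, and 8 and 8 in T-bet + GATA3 cells. Reads were therefore present in every library without T-bet and absent from both T-bet + Plum libraries. Against a floor of 3 counts per library, Clec4d was at least 25.4-fold lower in T-bet + Plum than in GFP + Plum cells. In T-bet + GATA3 cells it was 12.7-fold lower than in GFP + GATA3 cells (log2 FC -3.67), and both of these values describe the choice of the gene. In GFP + GATA3 compared with GFP + Plum cells, the log2 FC of Clec4d was 0.24 (SE 0.36). T-bet + GATA3 cells had 16 Clec4d counts in all against 0 in T-bet + Plum cells. Of the Clec4d counts, 47.9% fell on a transcript annotated for nonsense-mediated decay and 43.7% on a coding transcript.

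Clec4e (Mincle) lies next to Clec4d, at chr6:123281789-123289870 on the minus strand, and 6523 bases separate the genes. Both genes had no 31-base string in common, so reads of that length could be told apart. Clec4e counts were 81 and 74 in GFP + Plum, 8 and 11 in T-bet + Plum, 28 and 50 in GFP + GATA3, and 3 and 7 in T-bet + GATA3 cells. As CPM these were 5.01 and 4.69, 0.996 and 0.752, 2.68 and 3.17, and 0.324 and 0.466. All libraries with T-bet were below all libraries without it.

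Clec4e was not one of the genes that started the choice, and it fell in both comparisons with T-bet. It was added with earlier results of these data known, so its FDRs are no independent support. It was 5.63-fold lower in T-bet + Plum than in GFP + Plum cells (log2 FC -2.49, SE 0.34, edgeR FDR 0.00531). It was 7.08-fold lower in T-bet + GATA3 than in GFP + GATA3 cells (log2 FC -2.82, SE 0.38, edgeR FDR 0.00496). Without T-bet + Plum replicate 2 the former log2 FC was -2.27 with an FDR of 0.0718. The direction with GATA3 was opposite to that of Gpnmb, with a log2 FC of -0.72 in GFP + GATA3 compared with GFP + Plum (SE 0.29, FDR 1) and -1.05 in T-bet + GATA3 compared with T-bet + Plum cells (SE 0.43, FDR 1), and neither was a call. Models annotated as retained introns held 39.4% and 24.4% of the Clec4e counts, and coding transcripts 24.0% and 11.1%, so much of the count came from RNA that is not annotated as coding.

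Atp6v0d2 encodes the d2 isoform of the stalk subunit that couples the membrane and cytosolic sectors of the vacuolar proton pump (V-ATPase), an isoform known from osteoclasts, macrophages and dendritic cells. It lies at chr4:19876841-19922605 on the minus strand. Its counts were 172 and 117 in GFP + Plum, 0 and 1 in T-bet + Plum, 90 and 119 in GFP + GATA3, and 5 and 2 in T-bet + GATA3 cells. Levels with T-bet were at most 0.541 CPM and levels without it at least 7.42 CPM. The ratio of CPM-scaled summed counts, GFP + Plum over T-bet + Plum, was 205 with a 95% counting interval of 36.5 to 8130, since the T-bet + Plum line gave 1 count in all. For GFP + GATA3 over T-bet + GATA3 the ratio was 27.7 (95% counting interval 13.2 to 69.6). These intervals cover counting error only, and both ratios describe the choice of the gene. In GFP + GATA3 compared with GFP + Plum cells the log2 FC was -0.16 (SE 0.37).

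Of the 10 members, 7 passed the filter on low counts and were tested. Clec4d and Atp6v0d2 passed through the lines without T-bet only. In T-bet + Plum compared with GFP + Plum cells, 4 members were called lower (Gpnmb, Clec4d, Atp6v0d2 and Clec4e) and 0 higher, where 0.892% of 14791 genes were called lower and 2.12% higher. In T-bet + GATA3 compared with GFP + GATA3 cells the same 4 members were called lower and 0 higher, where 0.859% of all genes tested were called lower and 1.99% higher. Since 3 of the 4 were chosen for this fall, nothing is read from the count. The 4 members were also those whose 4 libraries with T-bet were all below the 4 without, a pattern found in 10.2% of all genes tested. In GFP + GATA3 compared with GFP + Plum cells edgeR called 0 members, where 0.0203% of all genes were called. At an unadjusted p below 0.05 there were 2 members (Gpnmb and Clec4e), beside 547 of the 14791 genes. DESeq2 also called 0 there.

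**Figure D2:**
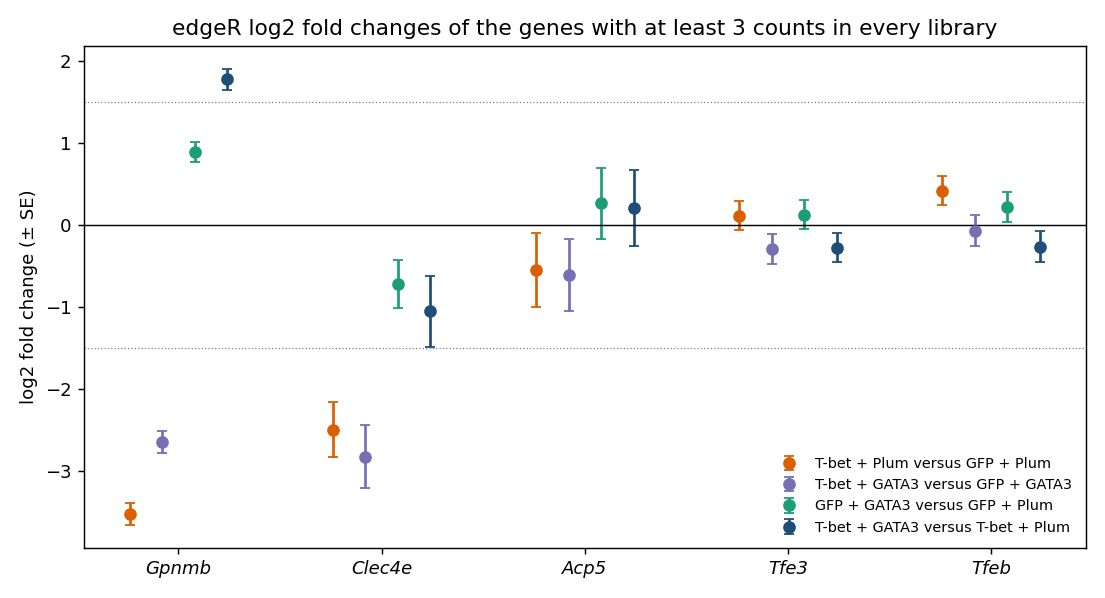
Log2 fold changes (edgeR, ± SE) of the 5 members with at least 3 counts in every library, in 4 comparisons marked by colour. Dotted lines mark a log2 FC of 1.5 in each direction. Gpnmb was at -3.52 and -2.64 in the T-bet comparisons and at 0.89 and 1.77 in the GATA3 comparisons, Clec4e was below 0 in all 4, and Tfe3, Tfeb and Acp5 lay between -0.61 and 0.42.

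Tfe3 and Tfeb, the broadly expressed MiT factors, were present in every line. A coding transcript held 30.6% of the Tfe3 counts. Models annotated as retained introns held 12.7% and 13.8%, and one annotated for nonsense-mediated decay held 12.9%. Part of the Tfe3 count thus came from RNA that is not annotated as coding. For Tfeb, coding transcripts held 47.5% and 30.5%. Tfe3 (chrX:7762560-7775202, plus strand) had CPM of 17.4 and 15.6 in GFP + Plum, 16.9 and 18.7 in T-bet + Plum, 19.0 and 17.0 in GFP + GATA3, and 12.7 and 16.6 in T-bet + GATA3 cells. Tfeb (chr17:47737030-47792419, plus strand) had 8.91 and 8.37, 10.3 and 12.7, 10.0 and 10.1, and 9.62 and 9.58 CPM in the same order. Without GATA3, the T-bet and control libraries overlapped for Tfe3, and those with T-bet were higher for Tfeb. With GATA3, both T-bet libraries were below both libraries without T-bet, for Tfe3 and for Tfeb. How many of all genes separate in this way, with 2 libraries on each side, was not counted. Nothing is therefore read from these orders. The log2 FC of Tfe3 was 0.11 in T-bet + Plum compared with GFP + Plum (SE 0.18, FDR 0.795) and -0.29 in T-bet + GATA3 compared with GFP + GATA3 cells (SE 0.18, FDR 0.432). For Tfeb these values were 0.42 (SE 0.18, FDR 0.267) and -0.07 (SE 0.19, FDR 0.892). Neither was called in a GATA3 comparison, with log2 FCs of 0.13 and -0.28 for Tfe3 and of 0.22 and -0.27 for Tfeb, without and with T-bet. The Tfe3 value in T-bet + GATA3 compared with GFP + GATA3 cells depended on the processing. With 1 library left out it was between -0.55 and -0.13, and under the other alternatives between -0.66 and -0.28. In TPM, Tfe3 was at 10.3 and 7.42 in GFP + GATA3 and at 3.81 and 6.02 in T-bet + GATA3 cells. Tests that miss the threshold do not show equal levels. Each of these log2 FCs was small beside those of Gpnmb with T-bet, a gene chosen for its fall.

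Mitf and Tfec, the MiT factors of pigment cells and of the macrophage lineage, were at the limit of detection. Mitf (chr6:97807052-98021349, plus strand) had 3 and 0 counts in GFP + Plum, 0 and 2 in T-bet + Plum, 3 and 6 in GFP + GATA3, and 1 and 3 in T-bet + GATA3 cells. Tfec (chr6:16833373-16898441, minus strand) had 0 counts in all 8 libraries, which allows up to 3 counts per library, between 0.186 and 0.373 CPM. Neither was tested, and no change in either could be detected at this depth.

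Ctsk encodes cathepsin K, the collagen-degrading protease of osteoclasts, and Acp5 encodes tartrate-resistant acid phosphatase. Ctsk (chr3:95499256-95509362, plus strand) had between 1 and 5 counts in every library and was not tested. Acp5 (chr9:22126727-22135711, minus strand) had 3.28 and 6.72 CPM in GFP + Plum, 2.74 and 3.97 in T-bet + Plum, 4.21 and 7.67 in GFP + GATA3, and 3.24 and 4.52 in T-bet + GATA3 cells. The lines overlapped, and the libraries of a line lay as far apart as the lines did. Acp5 was not called in T-bet + Plum compared with GFP + Plum (log2 FC -0.55, SE 0.45, FDR 0.564) or in T-bet + GATA3 compared with GFP + GATA3 cells (-0.61, SE 0.44, FDR 0.505). Without GFP + Plum replicate 2 the former value was 0.06. Exons of Acp5 overlap an antisense gene, 6530413G14Rik, which shares 5.58% of the 31-base strings of Acp5, and its own count was at most 2 per library.

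The levels of the 10 genes can be set side by side in TPM, which accounts for transcript length. In GFP + Plum cells the mean levels were 132 for Gpnmb, 8.54 for Clec4d, 7.37 for Tfe3, 6.81 for Tfeb, 4.13 for Acp5, 4.03 for Atp6v0d2, 2.87 for Clec4e, 0.169 for Ctsk, 0.0223 for Mitf and 0 for Tfec. Neighbours in this order among Clec4d, Tfe3 and Tfeb differed by less than the sum of their SDs. The same held among Acp5, Atp6v0d2 and Clec4e. In T-bet + Plum cells the order changed, with Gpnmb at 11.3, Tfeb at 8.19, Tfe3 at 7.50 and Acp5 at 2.74 TPM. Below them were Clec4e at 0.398, Ctsk at 0.233, Atp6v0d2 at 0.119, Mitf at 0.0359, and Clec4d and Tfec at 0 TPM. There Tfeb and Tfe3 differed by less than the sum of their SDs, and so did neighbours from Clec4e to Mitf. In GFP + GATA3 cells Gpnmb reached 252 ± 20.6 TPM (SD, n = 2), rank 337 among protein-coding genes. In T-bet + GATA3 cells Gpnmb was at 32.7 ± 5.32, Tfeb at 6.29 ± 0.485 and Tfe3 at 4.92 ± 1.56 TPM.

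The wider machinery around the MiT factors was measured with lists of related genes. The list of MiT factors and their regulators at the lysosome (folliculin and its partners, Rag GTPases, Ragulator, mTORC1, TSC, calcineurin) held 25 genes, of which 23 were tested and 0 were called in either T-bet comparison. Its median log2 FC was -0.15 and -0.08, beside 0.01 over all genes tested in each comparison. At an unadjusted p below 0.05 there were 4 and 5 of these genes, beside 2865 and 2897 of the 14791 genes tested, a like share. Fnip1, a folliculin-interacting protein, was the 1 gene past the FDR threshold without the fold threshold, at -0.94 (SE 0.17, FDR 0.0167) and -0.87 (SE 0.17, FDR 0.0216), and it was named after its values were seen. Lamtor3 and Lamtor5, the Ragulator subunits with the highest levels of the list, averaged 72.2 and 69.6 TPM.

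Of the V-ATPase subunits, 20 of 25 were tested. Atp6v0d2 was the 1 called lower in each T-bet comparison, and the median of the list was -0.16 and -0.18. In each T-bet comparison 8 of the 20 had an unadjusted p below 0.05, beside 2865 and 2897 of the 14791 genes tested. Past the FDR threshold but not the fold threshold, and named after their values were seen, were Atp6v1d (log2 FC -0.67, FDR 0.02, and -0.64, FDR 0.0232), Atp6v1g1 without GATA3 (-0.55, FDR 0.0498) and Atp6v1h with it (-0.61, FDR 0.0351). Atp6v1g3, a G subunit isoform known from kidney, was called higher in T-bet + GATA3 cells. Its counts were 2 and 0 in GFP + Plum, 4 and 16 in T-bet + Plum, 0 and 0 in GFP + GATA3, and 25 and 34 in T-bet + GATA3 cells. Against the floor of 3 counts per library it was at least 10.4-fold higher in T-bet + GATA3 than in GFP + GATA3 cells (edgeR FDR 0.0124). It passed the filter on low counts through the line in which it was high, so the call is no independent support for that difference. In T-bet + Plum compared with GFP + Plum cells it was not called (FDR 0.0814). The call was lost without either GFP + GATA3 library or T-bet + GATA3 replicate 1. The abundant subunits Atp6v0b and Atp6v0c averaged 206 and 161 TPM and were not called. Atp6v0d1, the broadly expressed d isoform, was looked up after the values of Atp6v0d2 were seen. It had 53.3 and 47.2 CPM in GFP + Plum, 42.1 and 38.8 in T-bet + Plum, 52.3 and 45.6 in GFP + GATA3, and 38.1 and 38.2 in T-bet + GATA3 cells, and its log2 FCs of -0.31 (FDR 0.245) and -0.36 (FDR 0.183) were not called.

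**Figure D3:**
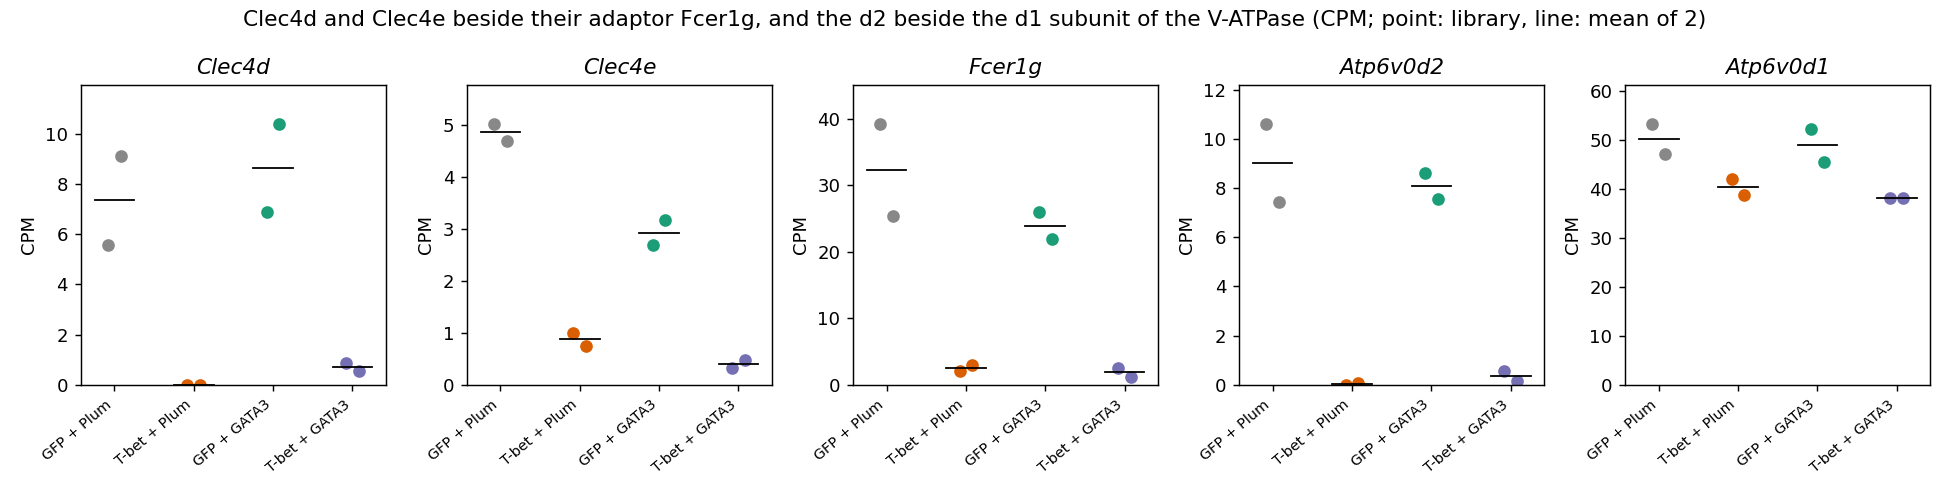
CPM (linear axis from 0) of Clec4d, Clec4e and their adaptor gene Fcer1g, and of the V-ATPase d2 and d1 subunit genes, in each of the 8 libraries (points) with the mean of 2 (lines). Fcer1g went from 25.4 and 39.2 CPM in GFP + Plum to 2.11 and 3.00 in T-bet + Plum cells, whereas Atp6v0d1 was at 38.1 CPM or above in every library.

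Of 19 genes of myeloid C-type lectins and their signalling, only 6 passed the filter, and 3 of these were called lower in both T-bet comparisons, Clec4d, Clec4e and Fcer1g. Among all genes tested, 0.892% and 0.859% were called lower. Clec4d was chosen for its fall and passed the filter only through the lines in which it was high, so the count of 3 is a description. Its median of -1.32 and -1.39 comes from these 6 genes. Fcer1g encodes the common Fc receptor gamma chain, the adaptor through which both receptors signal. Its counts were 634 and 401 in GFP + Plum, 17 and 44 in T-bet + Plum, 271 and 346 in GFP + GATA3, and 24 and 18 in T-bet + GATA3 cells. It fell with a log2 FC of -3.62 (SE 0.36, FDR 0.00136) without and -3.73 (SE 0.38, FDR 0.00135) with GATA3, and the groups did not overlap. Clec7a (Dectin-1), the other lectin receptor tested, was not called, with 1.21 (FDR 0.37) and 1.57 (FDR 0.243). Bcl10 and Malt1, the downstream signalling partners, averaged 32.2 and 30.0 TPM and were not called. Syk, the kinase that acts after the gamma chain in myeloid cells, had 1 count in 1 library and 0 in the others, and Card9 had at most 3.

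Of 42 lysosomal enzymes, 34 were tested. Ctsl, encoding cathepsin L, fell in T-bet + Plum compared with GFP + Plum cells (log2 FC -1.75, edgeR FDR 0.00806) and was at -1.17 (FDR 0.0379) with GATA3, below the fold threshold. Arsb, encoding arylsulfatase B, rose in both (1.5, FDR 0.0448, and 1.57, FDR 0.0397). At an unadjusted p below 0.05 there were 9 and 11 of the 34, beside 2865 and 2897 of the 14791 genes tested. Tpp1, encoding tripeptidyl peptidase, was past the FDR threshold but not the fold threshold in both (-0.95, FDR 0.0145, and -1.07, FDR 0.00868), as was Dnase2a, encoding the lysosomal DNase (-1.07, FDR 0.0295, and -1.11, FDR 0.0238). Lipa (0.99, FDR 0.0212) was so without GATA3 only, and these 3 were named after their values were seen. The median of this list was 0.01 in each comparison, and its most abundant genes, Ctsb and Psap at 116 and 67.5 TPM, were not called. When 1 library was left out, 0 or 1 of these enzymes were called in the comparison without GATA3, with 0 when T-bet + Plum replicate 2 was left out. In that comparison Arsb lay at the fold threshold. The count there was 1 in place of 2 with scaling by library size, DESeq2, no filter on low counts or the fit of 4 libraries. With GATA3 it was 0 in place of 1 with scaling by library size. In the comparison with GATA3, 0 enzymes were called without either T-bet + Plum, GFP + GATA3 or T-bet + GATA3 library.

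Among 21 lysosomal membrane and sorting proteins, 19 were tested. Gpnmb, chosen for its fall, was the 1 called lower in each T-bet comparison, where 0.892% and 0.859% of all genes tested were. Without GFP + Plum replicate 1, 2 were called in the comparison without GATA3. The median of the list was 0.06 and -0.18. In each, 6 of the 19 had an unadjusted p below 0.05, beside 2865 and 2897 of the 14791 genes tested. Past the FDR threshold but not the fold threshold were Lamp1, which encodes a major lysosomal membrane glycoprotein (log2 FC -0.67, FDR 0.0311, and -0.74, FDR 0.0214), and, with GATA3, Igf2r (-0.73, FDR 0.0308), which encodes a mannose 6-phosphate receptor, both named after their values were seen. M6pr, the other mannose 6-phosphate receptor gene, with 218 TPM, was not called. Of 18 autophagy genes, 16 were tested and 0 were called in any comparison, with medians of -0.10 and -0.07 in the T-bet comparisons. There 4 and 2 of the 16 had an unadjusted p below 0.05, beside 2865 and 2897 of the 14791 genes tested. Gabarap and Sqstm1, its most abundant genes, averaged 97.6 and 85.2 TPM. Of 22 osteoclast genes, 15 were tested and Atp6v0d2, also chosen for its fall, was the 1 called, with medians of -0.22 and -0.18. In each T-bet comparison 4 of the 15 had an unadjusted p below 0.05, beside 2865 and 2897 of the 14791 genes tested. Ppargc1b, named after its values were seen, was past the FDR threshold alone without GATA3 (0.78, FDR 0.0358). Tcirg1 and Ostm1, needed for the acid secretion of osteoclasts, averaged 23.3 and 13.3 TPM and were not called.

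**Figure D4:**
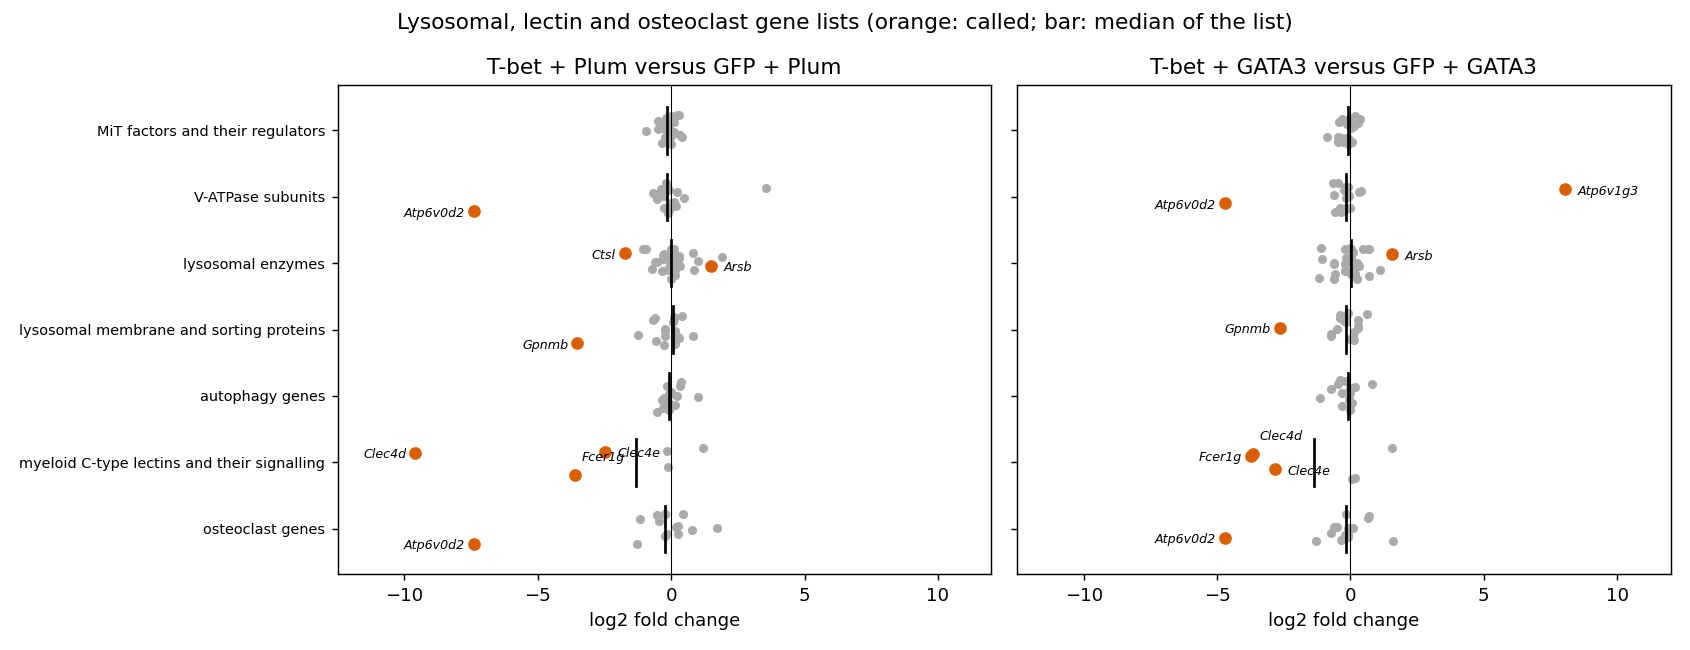
Log2 fold changes with T-bet (horizontal axis) for the tested genes of 7 lists, without GATA3 on the left and with GATA3 on the right. Orange points are called genes, bars are list medians, and the vertical scatter within a list has no meaning. List medians lie between -0.22 and 0.06, except for the lectin list at -1.32 and -1.39. The position of genes with counts of 0 in a line (Clec4d, Atp6v1g3) depends on the prior count and is no bound.

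Of 12 melanocyte genes only 3 were tested, and Gpnmb, which was chosen for its fall, and Trpm1 were called lower in both T-bet comparisons, where 0.892% and 0.859% of all genes tested were. Rab27a, the third, was not called, with 0.93 (FDR 0.0866) without and 0.93 (FDR 0.0919) with GATA3. Trpm1, which encodes a cation channel and hosts a microRNA gene, had 1963 and 897 counts in GFP + Plum, 103 and 136 in T-bet + Plum, 1007 and 1164 in GFP + GATA3, and 263 and 189 in T-bet + GATA3 cells. Its log2 FC was -3.03 (FDR 0.0097) without and -2.07 (FDR 0.0348) with GATA3. Between 64.6% and 85.0% of the Trpm1 counts of a library fell on 1 transcript annotated as a retained intron, so these counts do not measure the coding RNA. The call of Trpm1 was lost in both comparisons when either T-bet + Plum library was left out, and in the comparison with GATA3 also without either GFP + GATA3 library or T-bet + GATA3 replicate 2.

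Markers of other cells were measured beside these results. Of 20 myeloid markers, 8 had 0 counts in all libraries, among them Spi1, Cebpa, Tyrobp and the 3 C1q genes, and 13 had at most 3 counts in any library. The highest count of any of them was 25. Their summed level was between 1.75 and 2.12 TPM in GFP + Plum, 1.39 and 1.72 in T-bet + Plum, 1.61 and 2.28 in GFP + GATA3, and 0.695 and 1.16 in T-bet + GATA3 cells. Itgax and Cd163, the highest of them, averaged 0.411 and 0.379 TPM. Of the 4 markers tested, 0 were called by edgeR or DESeq2 in the T-bet comparisons, with 2 and 3 at an unadjusted p below 0.05. Lyz2, Cd163 and Itgam passed the filter on low counts through lines without T-bet, in which they were higher, so nothing is read from their direction or from these counts. In T-bet + Plum compared with GFP + Plum cells the log2 FC was -2.43 for Lyz2 (FDR 0.0652), -2.73 for Cd163 (FDR 0.0551) and -0.95 for Itgam (FDR 0.574), whereas Itgax was at 1.12 (FDR 0.535). With GATA3 the values were -2.74 for Lyz2 (FDR 0.062), -1.74 for Cd163 (FDR 0.121) and -2.13 for Itgam (FDR 0.149), whereas Itgax was at 0.85 (FDR 0.679). The median of the 4 was -1.69 without and -1.94 with GATA3. In T-bet + Plum compared with GFP + Plum cells 1 marker was called with the replicate block and 2 without a filter on low counts, and with GATA3 1 was called without that filter. Mpeg1 had 0 counts in the 4 libraries without T-bet and between 4 and 7 in those with it, and was not tested. In a bulk library, fewer cells of a type and less RNA per cell cannot be told apart. Pax5 and Cd79a, the highest B cell markers, averaged 0.105 and 0.0654 TPM. Of the NK cell markers, Klrb1c had 1 count in 1 library and Ncr1 had 0 in all.

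Of 12 T cell markers, 11 passed the filter on low counts, and Trbc2 and Lat, the most abundant, averaged 2160 and 436 TPM. Cd247, which encodes the CD3 zeta chain, had 0 counts in 3 libraries and at most 10 in the others, and Trbc1 had between 4 and 18. The median log2 FC of the 11 was 0.64 and 0.61 with T-bet. Of the 11, 2 were called higher without GATA3 and 1 with it, where 2.12% and 1.99% of all genes tested were. Cd2 rose in both T-bet comparisons (3.48, FDR 0.000376, and 2.54, FDR 0.00166), and Lck rose in T-bet + Plum compared with GFP + Plum cells (1.79, FDR 0.0358) but was not called with GATA3 (1.25, FDR 0.114). Cd5 (1.07, FDR 0.00204, and 1.18, FDR 0.00151), Zap70 (0.80, FDR 0.00531, and 0.61, FDR 0.0161) and, without GATA3, Cd3d (0.52, FDR 0.0498) were past the FDR threshold but not the fold threshold, and were named after their values were seen. The T cell marker sums were between 2580 and 3240 TPM in GFP + Plum, 3990 and 4470 in T-bet + Plum, 2750 and 2870 in GFP + GATA3, and 3700 and 3890 in T-bet + GATA3 cells. The part of these markers in the results above was not tested. The count of T cell markers called in T-bet + Plum compared with GFP + Plum cells was 1 in place of 2 without GFP + Plum replicate 1 or either T-bet + Plum library.

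Genes with the most similar profile to Gpnmb were found by Pearson correlation of log2 CPM over the 8 libraries, among 11063 other protein-coding genes tested. They were Wdr36 (r = 0.986), RP23-245B21.4 (also 2510009E07Rik, 0.986), Wasl (0.984), Tor1aip2 (0.983) and Sav1 (0.983). Each was lower with T-bet, by less than Gpnmb. Of the 5, RP23-245B21.4 differed most, with 61.2 and 46.6 CPM in GFP + Plum and 14.2 and 17.0 in T-bet + Plum cells, whereas Wdr36 had 266 and 266 CPM in GFP + Plum and 203 and 202 in T-bet + Plum cells. Of the members, Clec4d ranked 7 (0.980), Atp6v0d2 100 (0.945), Clec4e 1562 (0.731), Acp5 2461 (0.599), Tfe3 5091 (0.099) and Tfeb 8467 (-0.585). For Atp6v0d2 the closest genes were Cited2 (0.993), Serinc5 (0.992) and Apod (0.988), and for Clec4d they were Elac1 (0.990), Tor1aip2 (0.989) and Por (0.985). Apod, encoding the lipid carrier apolipoprotein D, had 22.5 and 20.9 CPM in GFP + Plum and 0.373 and 0.684 in T-bet + Plum cells. The 8 points share 4 lines and their depth, so these values describe the profiles and are not a test.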

How the data were processed

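RNA-seq of 8 EL4 libraries (4 lines with 2 libraries each) was analysed. Per the submitters' processing notes and the study's methods, the authors filtered paired-end reads with FastQC, trimmed them with Trim Galore and quantified transcripts with kallisto on mouse build mm10. The authors deposited estimated counts, which need not be whole, and TPM for 136535 transcripts per library. The strand setting is not given in the sources used here.

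Estimated counts were summed per gene, rounded and tested with edgeR 4.0.16 (R 4.3.3): TMM scaling, filterByExpr (14791 genes kept), 1 quasi-likelihood fit of the 4 lines and Benjamini-Hochberg adjustment over all genes. Calls needed an FDR no higher than 0.05 with a log2 fold change beyond 1.5 in either direction, except for the interaction (FDR alone). Approximate SEs are the log2 FC over the square root of F. CPM used TMM-scaled totals. Promoters came from RefSeq (GRCm38.p6). The steps were tested on simulated data.

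The members and gene lists were chosen with earlier results of these data known. All members are named. Of each list, the genes called in a comparison and the 2 with the highest mean TPM are named. Alternatives were DESeq2 1.42.0, scaling by library size, length offsets, other filters and thresholds, the replicate block, separate fits of the 4 libraries compared and leaving out each library.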

Additional observations from a re-analysis of the deposited data

How the results depend on the processing

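Gpnmb was lower with T-bet under all 16 alternatives run for each T-bet comparison, between -3.59 and -3.44 without GATA3 and between -2.76 and -2.58 with it. With at least 10 counts required in every library, 1 member was called lower in each T-bet comparison, since that filter removes genes with few reads in a line. When 1 library was left out, between 3 and 4 members were called in T-bet + Plum compared with GFP + Plum cells, 4 in T-bet + GATA3 compared with GFP + GATA3, 0 in GFP + GATA3 compared with GFP + Plum, between 0 and 1 in T-bet + GATA3 compared with T-bet + Plum, and 0 in the interaction. Where a line was left with 1 library, that library was assumed to vary like the others. Without a filter on low counts, 2 members were called in T-bet + GATA3 compared with T-bet + Plum cells and 2 in the interaction (Gpnmb and Clec4d). DESeq2 called 1 in the interaction (Gpnmb). These calls rest on the values that chose the genes and are no independent test. The causes were not tested.

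Values that changed sign were all of genes that were not called there. With 1 library left out, Acp5 ranged from -0.98 to 0.06 in T-bet + Plum compared with GFP + Plum, from -0.25 to 0.88 in GFP + GATA3 compared with GFP + Plum, from -0.08 to 0.52 in T-bet + GATA3 compared with T-bet + Plum, and from -0.67 to 0.45 in the interaction. Clec4d ranged from -0.09 to 0.65 and Atp6v0d2 from -0.40 to 0.12 in GFP + GATA3 compared with GFP + Plum. With offsets for transcript length the interaction was 0.04 for Clec4e and 0.02 for Acp5. The cause was not tested.

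Counts over all genes also moved. The 446 genes called in T-bet + Plum compared with GFP + Plum were 814 without a filter, 243 with at least 10 counts in every library, 917 by FDR alone, and 277 and 201 without T-bet + Plum replicates 1 and 2. The 421 called in T-bet + GATA3 compared with GFP + GATA3 were 813, 222, 854, and 230 and 197 without GFP + GATA3 replicates 1 and 2. The 3 in GFP + GATA3 compared with GFP + Plum were 29 in DESeq2, 138 without a filter, 0 in the fit of 4 libraries and between 0 and 5 without 1 library. The 5 in T-bet + GATA3 compared with T-bet + Plum were 23, 124, 3 and between 1 and 8, and the 0 in the interaction were 15 in DESeq2, 145 without a filter and between 0 and 3 without 1 library.

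Labels number the libraries of each line 1 and 2, without saying that a number marks a shared day. The correlation between libraries with the same number, after removing line means, was between -0.0455 and 0.302, so the numbers were not taken to pair the libraries. With the replicate block, 4 and 4 members were called in the T-bet comparisons, 0 and 1 in the GATA3 comparisons and 0 in the interaction, and 536, 531, 4, 4 and 0 genes in all. Depth limits Mitf, Ctsk and Tfec, and with 2 libraries per line no outlying library could be tested for.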
